A study of Mus musculus with 4 samples.

Results

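The 10 genes described here encode the transforming growth factor beta (TGF-beta) ligands, their receptors and the SMAD proteins that carry the signal: Tgfb1, Tgfb2, Tgfb3, Tgfbr1, Tgfbr2, Tgfbr3, Smad2, Smad3, Smad4 and Smad7. They were taken by symbol, and all 10 were found among the 36464 gene IDs of the deposited files. RNA was sequenced from wild type male C57BL/6 mice, from CD8+ T cells enriched from tumour grafts placed under the skin. One group received control IgG and the other an antibody against SIGLEC15, a sialic acid-binding lectin studied as an immune checkpoint, each by injection into the peritoneum over 2 weeks, with grafts collected on day 19. Each treatment had 6 mice, and each library mixed 3 cell pellets, which gave 2 libraries per treatment and 4 in all. The libraries are called IgG pool 1 and 2 and antibody pool 1 and 2, by the number in their titles. A standard deviation or p here therefore measures how pools, not single mice, differ, and the labels do not name the grafted tumour line.

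TGF-beta is secreted in a latent form, held by its own propeptide, and becomes active when integrins or proteases release it. The active ligand is bound by the type II receptor, encoded by Tgfbr2, which phosphorylates the type I receptor encoded by Tgfbr1; the coreceptor betaglycan, encoded by Tgfbr3, presents the ligand. The type I receptor phosphorylates SMAD2 and SMAD3, these join SMAD4 and enter the nucleus, and SMAD7, which is induced by the signal, shuts the receptor off. In CD8+ T cells TGF-beta is known to restrain cytotoxic and proliferative functions and to favour tissue residency.

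Expression was read as RPKM, reads scaled to exon length and to the counted reads of the library, so levels can be compared between genes per length. The libraries held between 14854801 and 16026197 counted reads. Enriched T cells were not the only source of RNA. The geometric mean of RPKM + 1, less 1, over 15 T cell identity markers was 36.0 in IgG pool 1 and between 103.6 and 114.3 in the other libraries. The epithelial markers, 10 in number, summed to 2630 RPKM in IgG pool 1, 484 in IgG pool 2, 940 in antibody pool 1 and 644 in antibody pool 2. The 16 hepatocyte and hepatoma markers summed to 5988, 1231, 2627 and 1265 RPKM in the same order. Cd8a, the gene of a CD8 coreceptor chain, stood at 115 RPKM in IgG pool 1 and between 290 and 351 in the others. This transcript of the labelled cell type was thus present in each library and lowest in IgG pool 1. The CD8 lineage markers summed to 405 RPKM in IgG pool 1 and between 1136 and 1228 RPKM in the others, and those of CD4 and regulatory T cells to between 56.1 and 126.4 RPKM. In the CD4 and regulatory T cell list, Ctla4 gave between 33.0 and 103.6 RPKM. Cd4 measured between 2.04 and 6.83 RPKM, and Foxp3 reached at most 0.724 RPKM. Sums for other leukocytes were also uneven: macrophage and monocyte markers reached 1632 RPKM in IgG pool 1 and between 283 and 599.7 RPKM elsewhere, of which Apoe alone, also made by liver cells, gave 1522 RPKM in IgG pool 1 and between 236 and 545 elsewhere, neutrophil markers 852, 68.7, 217 and 370 RPKM in the order above, and natural killer cell markers between 40.7 and 94.1 RPKM. The last sum came mostly from Tyrobp, Fcer1g and Eomes, which other leukocytes also express, and Ncr1, a defining natural killer cell gene, reached at most 0.372 RPKM. Red cell and platelet markers summed to 732, 1936, 126 and 31.2 RPKM. Fibroblast markers summed to between 186 and 490 RPKM, nearly all from Thy1, which T cells also express, while the collagen gene Col1a1 reached at most 0.585 RPKM. Markers of B cells summed to at most 1.9 RPKM and of endothelial cells to at most 3.7 RPKM. In bulk samples such as these, fewer cells of a type and less RNA per cell cannot be told apart.

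The promoters of the ligand gene Tgfb1 and of the receptor genes Tgfbr1 and Tgfbr2 are shown because the levels of Tgfb1 and Tgfbr2 on one side and Tgfbr1 on the other ran in opposite directions across the libraries. RefSeq promoter windows on GRCm38.p6 matched 5 of the 10 genes. Each line gives the 250 bases before the annotated start, 5′ to 3′ on the strand of the gene, with matches to CAGAC (the SMAD box) and GGGCGG (the GC box) on either strand in capitals. The windows are chr7:25686752-25687001 (plus strand) for Tgfb1, chr4:47352972-47353221 (plus strand) for Tgfbr1 and chr9:116175364-116175613 (minus strand) for Tgfbr2.
Tgfb1: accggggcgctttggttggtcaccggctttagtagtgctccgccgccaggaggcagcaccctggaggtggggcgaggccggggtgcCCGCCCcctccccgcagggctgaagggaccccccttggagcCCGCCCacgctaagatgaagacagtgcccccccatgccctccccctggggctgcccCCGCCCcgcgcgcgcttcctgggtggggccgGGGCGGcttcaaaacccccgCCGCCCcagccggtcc
Tgfbr1: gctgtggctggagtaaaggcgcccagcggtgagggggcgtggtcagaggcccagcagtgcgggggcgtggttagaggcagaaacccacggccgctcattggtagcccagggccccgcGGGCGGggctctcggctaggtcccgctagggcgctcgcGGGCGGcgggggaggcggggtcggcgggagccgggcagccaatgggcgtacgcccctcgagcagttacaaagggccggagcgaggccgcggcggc
Tgfbr2: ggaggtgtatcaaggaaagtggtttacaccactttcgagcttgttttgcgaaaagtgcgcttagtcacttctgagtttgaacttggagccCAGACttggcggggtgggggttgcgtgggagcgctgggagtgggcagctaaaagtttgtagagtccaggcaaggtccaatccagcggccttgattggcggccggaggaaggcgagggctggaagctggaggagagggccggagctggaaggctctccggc

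The Tgfb1 window held 5 GC boxes and the Tgfbr1 window 2, whereas the Tgfbr2 window held 0; 32.7% of the 32851 RefSeq promoter windows held at least 1. The SMAD box was present once in the Tgfbr2 window, 160 bases before the start, and 42.2% of all windows held one. Neither TGANTCA (the AP-1 site, in 6.75% of windows) nor TATAAA (the TATA box, in 12.4%) occurred in these 3 windows on either strand. GC content was 75.2% for Tgfb1, 74.8% for Tgfbr1 and 58.4% for Tgfbr2, against a median of 52.4% over all windows. These matches describe letters in the window only.

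Tgfb1 was the dominant ligand transcript in every library. Tgfb1 (ENSMUSG00000002603, chromosome 7, 25687002 to 25705077, plus strand) measured 46.3 RPKM in IgG pool 1, 71.5 in IgG pool 2, 50.3 in antibody pool 1 and 74.9 in antibody pool 2. These values rested on 3740 to 5607 reads and placed the gene above 90.8% to 94.6% of the 12484 genes tested. Each treatment thus had one library near 50 and one above 70 RPKM, and the treatments overlapped. The mean was 58.9 ± 17.8 RPKM (SD, n = 2) in the IgG pools and 62.6 ± 17.4 RPKM (SD, n = 2) in the antibody pools.

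The other ligand genes were barely detected. Tgfb3 (chromosome 12, 86056745 to 86079041, minus strand), which is studied for its part in palate fusion, measured 0.387, 0.267, 0.282 and 0.139 RPKM in IgG pools 1 and 2 and antibody pools 1 and 2, from 21, 14, 15 and 7 reads. Tgfb2 (chromosome 1, 186622792 to 186705989, minus strand) had 2, 3, 7 and 3 reads in the same order, or between 0.022 and 0.077 RPKM. The exact Poisson 95% interval of the antibody pool 1 count ran from 2.81 to 14.4 reads and that of the IgG pool 2 count from 0.619 to 8.77, so a difference in Tgfb2 was not detectable at this depth. Tgfb1 made up between 99.1% and 99.8% of the summed RPKM of the 3 ligand genes. The intervals cover counting error only, since sequencing reads copied by PCR are not independent molecules.

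**Figure D1:**
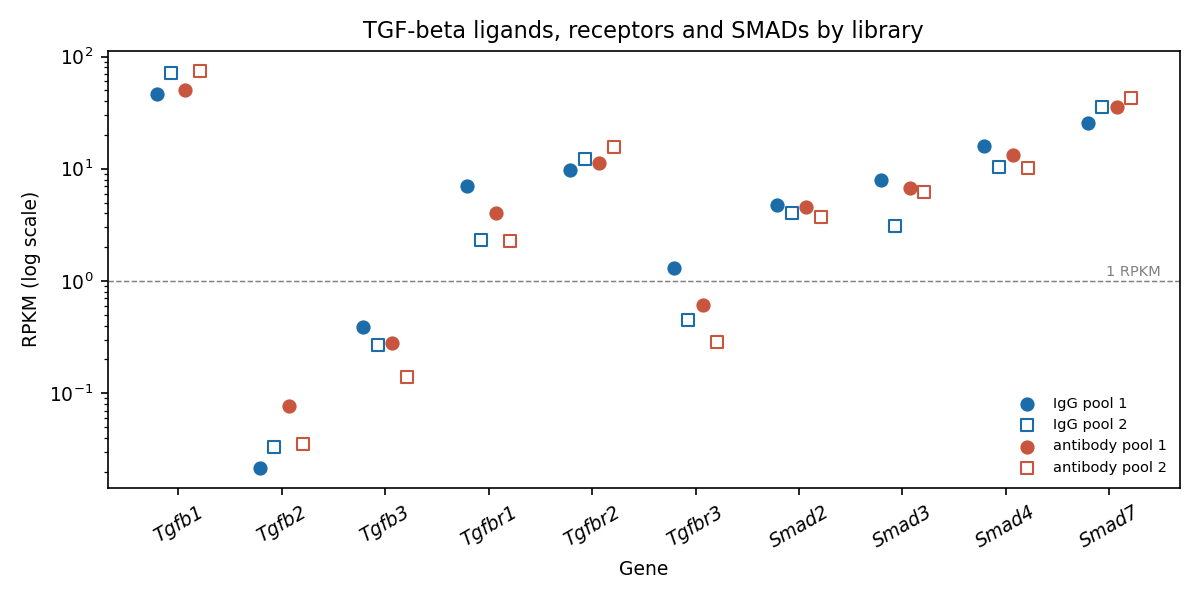
RPKM on a log scale (vertical axis) of the 10 genes (horizontal axis) in each of the 4 libraries; blue marks are IgG, red marks anti-SIGLEC15, filled circles pool 1 and open squares pool 2. Tgfb1 lies highest in every library and Tgfb2 lowest, and the 2 treatments overlap in 8 of the 10 genes. The others are Smad7 and Tgfb2, and Tgfb2 had 3 reads in both IgG pool 2 and antibody pool 2.

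Among the receptors, the transcript of the ligand-binding chain was more abundant than that of the signalling chain it activates. Tgfbr2 (ENSMUSG00000032440, chromosome 9, 116084293 to 116175360, minus strand) measured 9.77 RPKM in IgG pool 1, 12.2 in IgG pool 2, 11.4 in antibody pool 1 and 15.5 in antibody pool 2. The highest library was an anti-SIGLEC15 one and the lowest an IgG one, but the remaining 2 lay in the opposite order, so the treatments overlapped. Tgfbr1 (ENSMUSG00000007613, chromosome 4, 47353222 to 47414931, plus strand) measured 7.0, 2.33, 4.06 and 2.28 RPKM in the same order. Its highest value, in IgG pool 1, was 3.07 times its lowest, in antibody pool 2. The exact Poisson interval of Tgfbr1 in IgG pool 1, 6.5 to 7.53 RPKM, lay clear of that in IgG pool 2, 2.04 to 2.65 RPKM, so the spread inside the IgG group exceeded counting error.

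The ratio of Tgfbr2 to Tgfbr1 in RPKM was 1.40 in IgG pool 1, 5.25 in IgG pool 2, 2.80 in antibody pool 1 and 6.82 in antibody pool 2. The ratio was above 1 in all 4 libraries and varied more within each treatment than between the treatments. Tgfbr3 (chromosome 5, 107106570 to 107289629, minus strand) measured 1.32 RPKM in IgG pool 1 and 0.453, 0.613 and 0.288 in the others, from 138, 46, 63 and 28 reads. It reached 1 RPKM in a single library and so, like Tgfb2 and Tgfb3, did not enter the test.

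The receptor-regulated SMADs were present at modest levels. Smad2 (ENSMUSG00000024563, chromosome 18, 76241580 to 76310963, plus strand) measured 4.75, 4.02, 4.55 and 3.75 RPKM in IgG pools 1 and 2 and antibody pools 1 and 2. It was the steadiest of the 10 genes, with a highest library 1.27 times its lowest. Smad3 (ENSMUSG00000032402, chromosome 9, 63646767 to 63757994, minus strand) measured 7.98, 3.08, 6.78 and 6.18 RPKM in the same order. Both anti-SIGLEC15 values of Smad3 lay between the 2 IgG values. The ratio of Smad3 to Smad2 was 0.766 in IgG pool 2 and between 1.49 and 1.68 in the other libraries.

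Smad4, the shared partner of the pathway (ENSMUSG00000024515, chromosome 18, 73639009 to 73703780, minus strand), measured 15.8, 10.4, 13.3 and 10.1 RPKM. In each treatment pool 1 was the higher library. Smad7, the inhibitory SMAD (ENSMUSG00000025880, chromosome 18, 75367529 to 75395935, plus strand), measured 25.5, 35.5, 35.6 and 42.9 RPKM. Smad7 exceeded Smad3 by 3.19 times in IgG pool 1, 11.5 times in IgG pool 2, and 5.25 and 6.94 times in antibody pools 1 and 2. In RPKM the inhibitor was therefore the most abundant of the 4 SMAD transcripts in every library.

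Over the 4 libraries the order of mean levels was Tgfb1 at 60.7 RPKM, Smad7 at 34.9, Smad4 at 12.4, Tgfbr2 at 12.2, Smad3 at 6.01, Smad2 at 4.27, Tgfbr1 at 3.92, Tgfbr3 at 0.667, Tgfb3 at 0.269 and Tgfb2 at 0.042. The ranges of Smad4 and Tgfbr2 overlapped, as did those of Smad3 and Smad2, of Smad2 and Tgfbr1, and of Tgfbr3 and Tgfb3. The ranges of the remaining neighbours in this order did not.

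The comparison of the treatments asks how CD8+ T cells of the tumour change when SIGLEC15 is blocked. None of the members passed the test, and 1 of the 7 tested, Smad7, lay higher in both antibody pools than in both IgG pools. Of all 12484 genes tested, 12.1% lay higher and 6.02% lower in this sense. Smad7 measured 30.5 ± 7.09 RPKM (SD, n = 2) in the IgG pools and 39.3 ± 5.17 RPKM (SD, n = 2) in the antibody pools. The gap that separated the treatments, between 35.5 and 35.6 RPKM, was inside counting error: the exact Poisson intervals of these libraries ran from 34.1 to 36.9 and from 34.2 to 37.0 RPKM. Under median-of-ratios scaling and under scaling to the T cell markers, 0 tested members lay apart. The share of all genes apart was not computed under these scalings, so nothing particular to the members follows from it. Per T cell marker level, IgG pool 1 was the highest library for 90.1% of all genes tested.

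The test was limma on log2(RPKM + 1), two-sided, with Benjamini-Hochberg adjustment over all genes tested and a threshold of 0.05; low genes change by less on this scale than in RPKM. The number called was 0 of the 12484 genes (0%), and 146 (1.17%) had an unadjusted p under 0.05. On recovered reads, limma-voom made 0 calls among 15061 genes, 90 of which (0.598%) had an unadjusted p under 0.05. In limma 0 of the 7 members had an unadjusted p under 0.05 and the adjusted p of each was 1. The log2 fold change, anti-SIGLEC15 minus IgG, was 0.37 (95% confidence interval -0.39 to 1.12) for Smad7, 0.30 (-0.84 to 1.44) for Smad3 and 0.26 (-0.49 to 1.02) for Tgfbr2. It was 0.091 (-0.81 to 0.99) for Tgfb1, -0.066 (-0.79 to 0.66) for Smad2, -0.14 (-0.96 to 0.68) for Smad4 and -0.34 (-1.69 to 1.01) for Tgfbr1. The median over these 7 was 0.091, beside 0.017 over all genes tested. In linear terms the interval allowed a ratio of RPKM + 1 from 0.570 to 1.99 for Tgfb1 and from 0.310 to 2.01 for Tgfbr1. Changes within these ranges were not excluded with 2 libraries per treatment. A permutation of 2 libraries against 2 cannot give a two-sided p below 0.333.

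**Figure D2:**
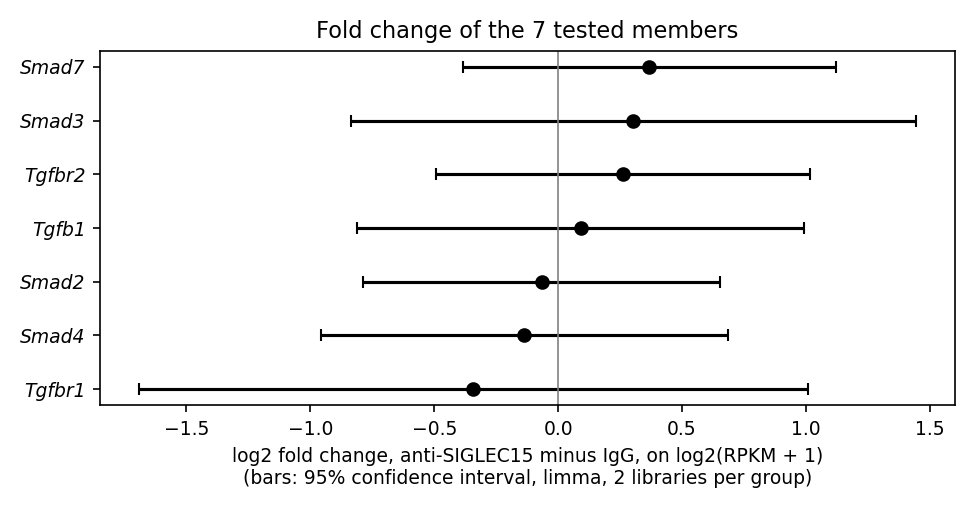
Log2 fold change of anti-SIGLEC15 against IgG on log2(RPKM + 1) (horizontal axis) for the 7 tested genes (vertical axis); points are limma estimates and bars 95% confidence intervals from 2 libraries per treatment. Every interval includes 0, and that of Tgfbr1 is the widest, from -1.69 to 1.01.

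The direction of 5 of the 7 members depended on single libraries. Without IgG pool 1 the log2 fold change was -0.22 for Tgfb1, 0.29 for Tgfbr1, 0.031 for Smad2 and 0.14 for Smad4. Each of these is opposite in sign to the value from all 4 libraries. Without IgG pool 2 that of Smad3 was -0.26, and without IgG pool 1 it was 0.87. Without antibody pool 2 the values for Tgfb1, Smad2 and Smad4 were -0.19, 0.047 and 0.042. For Smad7 and Tgfbr2 the sign was positive whichever library was left out, and scaling to the T cell markers turned it. Calls over all genes also hung on the IgG pools: 135 of 11977 genes (1.13%) were called without IgG pool 1, 2251 of 12091 (18.6%) without IgG pool 2 and 7 of 12050 (0.0581%) under T cell marker scaling, and none of these was a member.

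IgG pool 1 was the highest or the lowest library for all 7 tested members, as for 77.7% of all genes tested; the share was 38% for IgG pool 2, 35.7% for antibody pool 1 and 48.5% for antibody pool 2. It was the highest for Tgfbr1, Smad2, Smad3 and Smad4 and the lowest for Tgfb1, Tgfbr2 and Smad7; over all genes tested it was the highest for 34% and the lowest for 43.7%. The 3 untested members had it as an extreme too, at the top for Tgfb3 and Tgfbr3 and at the bottom for Tgfb2. This library also had the lowest T cell marker level and the highest epithelial and hepatocyte marker sums, given above; the part of these cells in the members' values was not tested.

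The number only names a library, yet both treatments ordered their pools alike for all 7 tested members, as for 56.5% of all genes tested. Pool 1 exceeded pool 2 in both treatments for 4 of the 7 members, namely Tgfbr1, Smad2, Smad3 and Smad4 (39.4% of all genes tested), and pool 2 exceeded pool 1 in both for the other 3, namely Tgfb1, Tgfbr2 and Smad7 (17.1%). The sums of the epithelial and hepatocyte markers were larger in pool 1 of each treatment. All 15 tested hepatocyte and hepatoma markers and 7 of 8 tested epithelial markers lay higher in pool 1 of both treatments, compared with 0 of 15 T cell identity markers.

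When the log2(RPKM + 1) profile of a gene over the 4 libraries was centred and set against the mean profile of each of 12 marker lists, Tgfbr1 lay nearest to the epithelial list. The largest difference between them in any library was 0.19, and that between Tgfbr1 and the T cell identity list was 1.99. Smad4 and Smad3 lay nearest to the macrophage and monocyte list, with largest differences of 0.25 and 0.42. Tgfb1, Tgfbr2 and Smad7 had largest differences of 0.83, 0.91 and 0.77 from the T cell identity list and of 1.29, 1.21 and 1.35 from the epithelial list, and lay nearest to the fibroblast, natural killer cell and CD4 and regulatory T cell lists, with largest differences of 0.33, 0.25 and 0.28 respectively. These likenesses rest on 4 libraries, describe shape only and carry no test. The measure favours lists that hardly vary. The fibroblast profile ran only from -0.048 to 0.046, and 10 of its 12 markers stayed under 1 RPKM in every library. So did 4 of the 8 natural killer cell markers. Smad2, the steadiest member, lay nearest to the endothelial list (0.13), of which 10 of 11 markers stayed under 1 RPKM. Nearness to such lists does not point to a cell type. In the CD4 and regulatory T cell list, Cd4 reached at most 6.83 RPKM and Foxp3 0.724, whereas Ctla4 reached 103.6. Of the 14 macrophage and monocyte markers, 5 stayed under 1 RPKM in every library, Csf1r and Adgre1 among them, whereas Cd68 measured between 24.5 and 31.0 RPKM and Cd14 between 8.9 and 65.0 RPKM. Of the 10 epithelial markers, 2 stayed under 1 RPKM in every library, Cldn7 and Ocln, and Cdh1 was lowest in IgG pool 1, whereas Krt18 measured 1403 RPKM there and 267, 501 and 336 RPKM in the others.

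**Figure D3:**
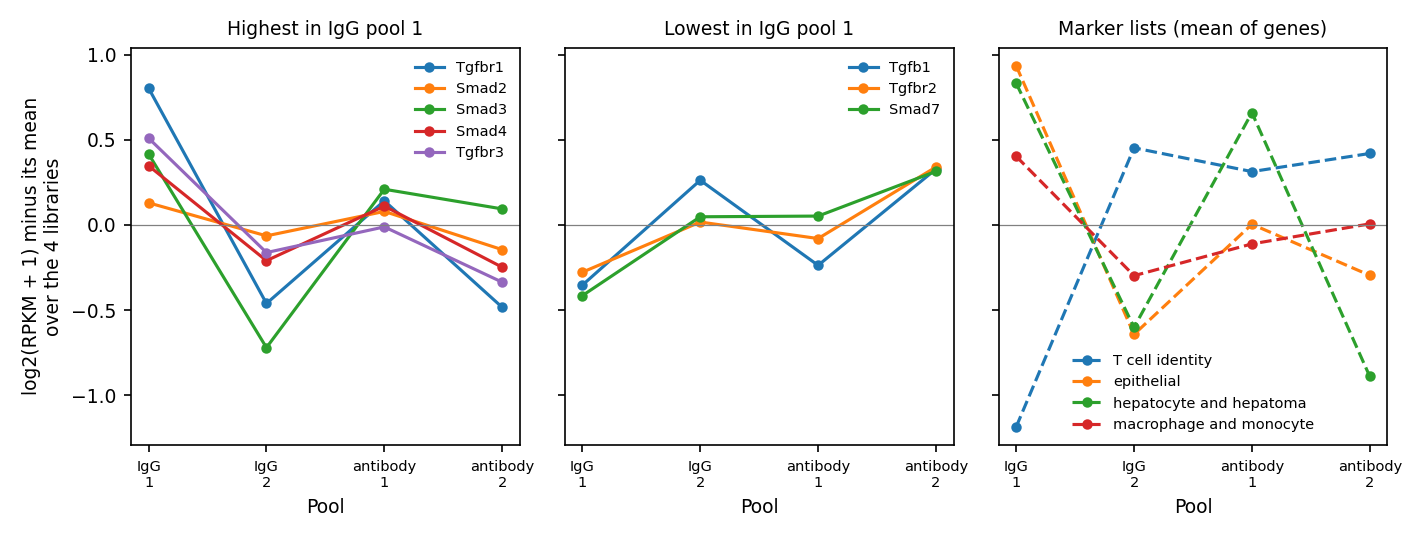
Log2(RPKM + 1) minus its mean over the 4 libraries (vertical axis) in each library (horizontal axis), for members highest in IgG pool 1 (left), members lowest there (middle) and the mean of 4 marker lists (right); lines join the libraries only as a guide. Tgfbr1 and the epithelial list stay within 0.19 of each other, and the T cell identity list is lowest in IgG pool 1.

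By the same measure, among 5985 protein-coding genes with a mean of at least 5 RPKM, the profiles nearest to Tgfb1 were those of Rbpj, the DNA-binding effector of Notch signalling (largest difference 0.056), Fbxo34 (0.076) and Eif2ak3 (0.081). Those nearest to Tgfbr2 were Nfkbib, an inhibitor of NF-kappaB (0.052), Fam76a (0.053) and Hivep1 (0.054). Those nearest to Smad7 were Riok1 (0.033), Gna13, a G protein subunit (0.036), and Cpeb4 (0.043). With 4 libraries many genes can share a profile closely.

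The levels were also set against the T cell marker level of each library, which was lowest in IgG pool 1. On this scale IgG pool 1 was the highest library for 9 of the 10 members, Tgfb2 being the exception, and for 90.1% of all genes tested, so nothing particular to the members follows from it. Per 100 RPKM of the T cell geometric mean, Tgfb1 measured 129 RPKM in IgG pool 1, 62.6 in IgG pool 2, 48.5 in antibody pool 1 and 67.1 in antibody pool 2. Tgfbr1 measured 19.5, 2.04, 3.91 and 2.04 on this scale, Tgfbr2 27.2, 10.7, 11 and 13.9, and Smad7 70.8, 31.1, 34.4 and 38.5. This scaling moved the median of all genes tested to -0.62 on the log2 scale, and relative to that median the log2 fold change was 0.26 for Smad7, 0.22 for Smad3, 0.18 for Tgfbr2, -0.024 for Tgfb1, -0.087 for Smad2, -0.23 for Smad4 and -0.39 for Tgfbr1. Without scaling, the same values relative to a median of 0.017 were 0.35, 0.29, 0.24, 0.074, -0.083, -0.15 and -0.36. Tgfb1, which lay nearest to the median, alone changed sign, and the order was unchanged. The scaling divided every gene of a library by the same factor. That order was therefore nearly fixed in advance, and nothing about the members follows from it.

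The wider pathway was followed in 8 lists with 98 genes besides the 10 members. Of these genes 67 were tested, of which 0 passed the test (limma, adjusted p under 0.05) and 1 had an unadjusted p under 0.05. Both antibody pools lay above both IgG pools for 12 of them and below for 1 (12.1% and 6.02% of all genes tested), with a median log2 fold change of -0.017. IgG pool 1 was the highest or lowest library for 61 of the 67, and for 77.7% of all genes tested.

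Genes that store and release the ligand differed among themselves. Of 9 tested, 2 lay above both IgG pools in both antibody pools and 0 below (12.1% and 6.02% of all genes tested), and the median log2 fold change was 0.0011. The higher ones were Nrros, which tethers latent TGF-beta on myeloid cells (3.00 and 5.88 RPKM with IgG, 6.59 and 7.64 with anti-SIGLEC15; log2 fold change 0.63), and Furin, the convertase that cuts the propeptide (7.15 and 7.80 against 8.11 and 11.3; 0.32). Thbs1, which encodes the activator thrombospondin, was the most abundant and followed IgG pool 1, at 133, 19.7, 47.7 and 30.1 RPKM. Lrrc32, which tethers latent TGF-beta on regulatory T cells, stayed at or under 0.544 RPKM, and Itgb8, a subunit of an activating integrin, at or under 0.115 RPKM; neither entered the test.

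The tested receptors and SMADs of the superfamily outside the members were highest in IgG pool 1. All 3 tested receptors (Acvr1, Acvr1b and Bmpr1a) had IgG pool 1 as their highest library. So had all 3 tested SMADs (Smad1, Smad5 and Smad6) and 34% of all genes tested. In each list 0 of 3 lay apart between the treatments, with medians of -0.43 and -0.47. Of all genes tested, 12.1% lay higher and 6.02% lower. IgG pool 1 also had the largest epithelial and hepatocyte marker sums, and the part of these cells in the values was not tested. Bmpr1a, a type I receptor for bone morphogenetic proteins, measured 5.65, 1.37, 2.50 and 1.03 RPKM, and Smad5, which carries their signal, 9.63, 3.64, 5.25 and 3.09. Smad9 was at 0 in all libraries. Of 6 tested ligands, 5 were highest in IgG pool 1, led by Gdf15, a stress-induced ligand, at 343, 47.7, 101.7 and 47.5 RPKM, and their median was -0.48.

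SMAD cofactors and inhibitors gave fold changes of either sign. Of 9 tested partners, 1 lay higher in both antibody pools and 1 lower (12.1% and 6.02% of all genes tested). The higher was Runx1 (1.09 ± 0.327 RPKM with IgG and 1.68 ± 0.09996 with anti-SIGLEC15, SD, n = 2). The lower was the endosomal adaptor gene Zfyve16 (1.94 ± 0.0945 and 1.69 ± 0.203). Zfyve16 measured 1.88 RPKM in IgG pool 2 and 1.83 in antibody pool 2, a narrow gap. Runx3, a transcription factor of the CD8 lineage that works with SMADs, was the most abundant of this list, at 12.0, 30.5, 24.2 and 33.5 RPKM. Of 17 tested inhibitors and turnover genes, 3 lay higher and 0 lower (12.1% and 6.02% of all genes tested): Pmepa1, Ldlrad4 and Usp15. For Usp15 the gap was narrow, with 4.40 RPKM in IgG pool 2 and 4.47 in antibody pool 2. Fkbp1a, whose product binds the type I receptor, was the most abundant, at 107, 87.5, 88.5 and 75.5 RPKM. The corepressor genes Ski and Skil measured 7.38 ± 0.846 and 11.3 ± 2.81 RPKM with IgG and 9.29 ± 2.68 and 15.8 ± 7.15 RPKM with anti-SIGLEC15. Smurf2, a ubiquitin ligase that SMAD7 brings to the receptor, measured 5.68 ± 1.61 and 5.39 ± 2.00 RPKM.

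Of 13 tested genes known to be raised by TGF-beta, 5 lay above both IgG pools in both antibody pools and 0 below (12.1% and 6.02% of all genes tested), with a median log2 fold change of 0.37. Smad7, described above, is one of them, and Pmepa1 and Ldlrad4 were already counted among the inhibitors, so the counts of the lists are not independent. Pmepa1, a feedback inhibitor that holds SMAD2 and SMAD3 away from the receptor, measured 0.318 and 1.15 RPKM with IgG and 1.30 and 3.49 RPKM with anti-SIGLEC15 (log2 fold change 0.93, 95% confidence interval -0.29 to 2.15). Itgae, which encodes the CD103 integrin chain of tissue-resident T cells, measured 0.0817 and 1.06 RPKM with IgG and 2.28 and 1.34 with anti-SIGLEC15 (0.89, -0.24 to 2.03). Itga1, a collagen-binding integrin of resident cells, and Ldlrad4, which encodes a further feedback inhibitor, gave 0.57 and 0.52. Each of these had its lowest value in IgG pool 1, and all had an adjusted p of 1 in limma.

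The 13 genes did not move as 1 group. In 6 of them IgG pool 1 was the highest library and in 7 the lowest. The first kind included Tgfbi (244, 38.9, 102.5 and 30.2 RPKM) and Fn1 (387, 90.5, 190.9 and 68.2), which encode matrix proteins and were picked here after their values were seen. The second kind held the integrins and feedback inhibitors above and Rgs16, the most abundant of the list, at 174, 424, 264 and 489 RPKM.

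Effector genes that TGF-beta is known to lower in T cells were compared next. Of 11 tested, 4 lay above both IgG pools in both antibody pools and 0 below (12.1% and 6.02% of all genes tested). The median log2 fold change was 0.81, and IgG pool 1 was the lowest library for 9 (43.7% of all genes tested). The 4 that lay higher were Klrg1 (1.61), S1pr1 (1.30), Fasl (1.06), the death ligand gene, and Ifng (0.81). Their values in IgG pool 2 and in the lower antibody pool were 5.15 and 12.3, 4.70 and 5.17, 42.2 and 42.4, and 170 and 174 RPKM in that order. Gzmb, the most abundant, had 0.31. The list did not move as 1 group: Prf1 had -0.23, Klf2 0.13 and Myc 0.18. These last genes were picked here after their values were seen. None of the 11 passed the test. The T cell identity markers, of which IgG pool 1 was the lowest library for 15 of 15, had a median of 0.81 as well.

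**Figure D4:**
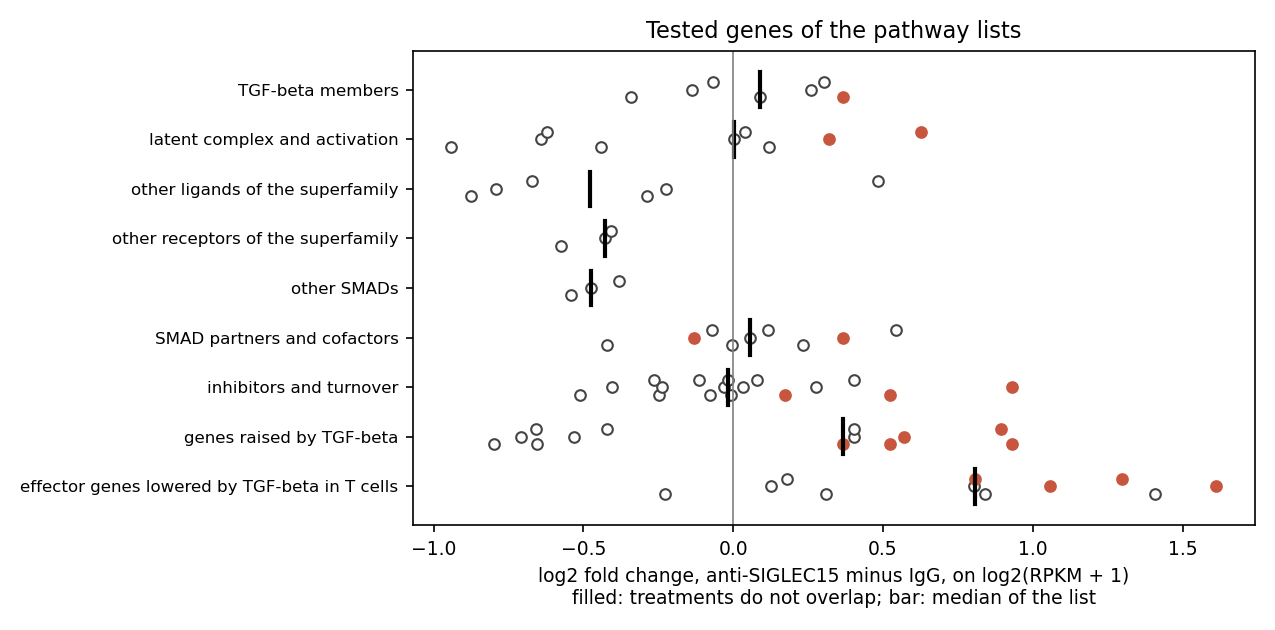
Log2 fold change of anti-SIGLEC15 against IgG on log2(RPKM + 1) (horizontal axis) of each tested gene in the 9 lists (vertical axis); filled points are genes whose treatments do not overlap and bars mark the median of each list. The other SMADs and the other receptors lie below 0, with medians of -0.47 and -0.43, and the effector genes have a median of 0.81.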

How the data were processed

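The deposited files hold 1 value per gene and library, which are RPKM values computed by the authors; the unit is not named in the file headers and was read from the values. A value multiplied by exon length in GENCODE M21 was a whole multiple of 1 step per library, within 0.02, for at least 98.9% of genes under 1000 reads, and reads were recovered from that step. The builds GRCm38 and mm10 are named per the submitters' processing notes; the aligner, counter and annotation release are not stated in the sources used here. IgG pool and antibody pool stand for the libraries of IgG and anti-SIGLEC15 treated mice. Symbols and coordinates come from GENCODE M21, for 36386 of 36464 IDs.

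The fit used R 4.3.3 and limma 3.58.1 with trend and robust shrinkage on log2(RPKM + 1), for genes that reached 1 RPKM in 2 or more libraries. It was also run on simulated libraries with known changes. Apart from these changes the simulated libraries shared the same mean profile. They lacked the marker differences between the pools, so the simulation does not cover them. Tables were made with Python 3.11.15, pandas 2.3.3 and scipy 1.17.1. The members and gene lists were chosen with earlier results of these data known. Named pathway genes are the most abundant of each list, up to 4 with a mean of at least 1 RPKM whose treatments do not overlap, and 7 fixed genes (Itgae, Skil, Pmepa1, Lrrc32, Itgb8, Ski and Smurf2). Marker lists covered T cell identity, CD8 lineage, CD4 and regulatory T cells, natural killer, B, macrophage and monocyte, neutrophil, platelet and red cell, hepatocyte, epithelial, fibroblast and endothelial cells. Alternatives were other scalings, filters, a pseudocount of 0.1, limma-voom on recovered reads, the replicate number as a block, and leaving out each library.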

Additional observations from a re-analysis of the deposited data

How the results depend on the processing

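With each library left out in turn, between 0 and 2251 genes were called (2251 without IgG pool 2 and 135 without IgG pool 1), the median log2 fold change of the tested members ran from -0.16 to 0.25, and between 1 and 7 of 7 tested members lay apart between the treatments. Members apart numbered 2 without IgG pool 1 (52.3% of all genes tested in that fit), 7 without IgG pool 2 (81.9%), 6 without antibody pool 1 (57.1%) and 1 without antibody pool 2 (45.1%), and 1 pool against 2 separates many genes. A pool left alone in its treatment was given the spread of the other treatment. In these fits the log2 fold change ran from -0.22 to 0.40 for Tgfb1, from -0.97 to 0.29 for Tgfbr1, from -0.18 to 0.047 for Smad2, from -0.26 to 0.87 for Smad3 and from -0.42 to 0.14 for Smad4, so each of these changed sign, whereas Smad7 and Tgfbr2 did not. Values opposite in sign to those from all libraries were 0.031 for Smad2, 0.14 for Smad4, -0.22 for Tgfb1 and 0.29 for Tgfbr1 without IgG pool 1, -0.26 for Smad3 without IgG pool 2, and 0.047 for Smad2, 0.042 for Smad4 and -0.19 for Tgfb1 without antibody pool 2. Scaling to the T cell markers called 7 genes, set the member median to -0.64 and left 0 members apart; under it the log2 fold change was -0.64 for Tgfb1, -0.44 for Tgfbr2, -0.40 for Smad3 and -0.36 for Smad7. Median-of-ratios scaling left 0 members apart. The share of all genes apart was not computed under either scaling. Without a filter 2 of 10 members lay apart, Smad7 and Tgfb2, and the share of all genes apart in that fit was not computed. Tgfb2 had 3 reads in IgG pool 2 and 3 in antibody pool 2 (0.0334 and 0.0349 RPKM), so only library size set these apart. The member median was -0.013 without a filter. It was 0.26 with a filter at 5 RPKM, which kept 5 members, and -0.081 with limma-voom, which kept 9. The filters left the log2 fold change of each tested member that was kept as it was, so those medians moved only with the members included. The cause of the other shifts was not tested. No member was called in any alternative, with adjusted p from 0.077 to 1.

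With the replicate number as a block, limma called 0 of 12484 genes, as without it, with a member median of 0.091 and 1 member apart. Over genes, the difference between pools 1 and 2 correlated at 0.33 between the treatments; with 2 pairs the numbers are not taken to pair the samples. The IgG pair correlated at 0.884 and the antibody pair at 0.972 on the log2 scale. For Tgfb2, Tgfb3 and Tgfbr3 the number of reads limits any comparison.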

Other observations

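Mitochondrially encoded genes took 11.9% and 13.0% of counted reads in IgG pools 1 and 2 and 8.92% and 18.4% in antibody pools 1 and 2. In antibody pool 2, which had the largest such share, Tgfb1, Tgfbr2 and Smad7 were at their highest and Tgfb3, Tgfbr1, Tgfbr3, Smad2 and Smad4 at their lowest; the part of RNA quality in these values was not tested.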
